A study of Mus musculus with 8 samples.

Results

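The livers of mice lacking Sco1 in hepatocytes were examined for 10 genes that the tumour suppressor p53 is known to induce: Cdkn1a, Mdm2, Ccng1, Trp53inp1, Phlda3, Zmat3, Eda2r, Bax, Bbc3 and Fas. They were chosen by name as established p53-induced arrest and death genes, and each was read from the probe set of highest mean over the 8 arrays among those annotated with that symbol alone. Probe sets of 9 of the 10 genes were found among the 22180 genes tested, and Bax was not analysed here. Zmat3 had a further probe set annotated with a neighbouring transcript as well, which was not used.

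Liver RNA was taken at 27 days of age from 8 mice of the strain C57BL/6N and hybridised to 1 array per mouse. The 4 knockout mice had the genotype Albumin-Cretg/wt:Sco1fl/fl, in which Cre under the albumin promoter removes a floxed part of Sco1 in hepatocytes, while other liver cells keep the gene. Sco1 is a mitochondrial copper chaperone needed to assemble cytochrome c oxidase. The titles call the 4 controls Sco1fl/fl, but their genotype labels form 2 classes: wild-type mice 1 and 3 were Albumin-Cretg/wt:Sco1fl/wt, with Cre and 1 intact allele, and mice 2 and 4 were Albumin-Crewt/wt:Sco1fl/fl, with no Cre.

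Sco1 itself lay at 7.48, 7.62, 7.72 and 7.56 log2 units in knockout mice 1 to 4 and at 7.84, 7.93, 8.19 and 8.04 in wild-type mice 1 to 4, without overlap and with a difference of -0.41 ± 0.09 (SE) that missed the threshold (limma, adjusted p = 0.0633). Array medians over the tested genes ranged from 6.47 to 6.54. All 8 hepatocyte markers examined, albumin among them, averaged at least 11.32 log2 units, and their summed level ranged from 16.21 to 16.24 in knockout and from 16.19 to 16.24 in wild-type livers. The brightest markers weigh most in this sum. Of single markers 4 lay above 0 and 4 below, and none passed the test. Serpina1a at -0.32 ± 0.12 and Fgb at -0.09 ± 0.07 (SE) were lower in every knockout liver, and 10.7% of all genes also had groups that did not overlap. Both mouse 1 arrays stood apart in the clock output gene Dbp, at 9.66 in the knockout and 9.86 in the wild-type mouse against 6.87 to 7.33 in the other arrays. Knockout mouse 4 stood apart in Y-linked genes, with a mean of 7.36 against 8.60 to 8.86 elsewhere.

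In unstressed cells p53 is kept low by Mdm2, a ubiquitin ligase that p53 itself induces, so that the pair forms a feedback loop. DNA damage, oncogene activity or ribosomal and nutrient stress stabilise p53, which then binds response elements near its target genes and switches on programmes of arrest, repair and death. In the liver Cdkn1a, which encodes the cyclin-dependent kinase inhibitor p21, restrains hepatocyte division, and Fas, a death receptor of the tumour necrosis factor receptor family, makes hepatocytes sensitive to Fas ligand. Several of these genes also answer to other regulators, and Bbc3 and Cdkn1a are known targets of the integrated stress response.

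The bases before the transcript starts of Cdkn1a, Ccng1 and Fas are shown because they set the gene with an annotated start beside a p53 element against the gene with the largest positive difference and against the gene that fell. They are the 250 bases upstream of a RefSeq start in build GRCm38.p6, read along the gene, with matches to the p53 half-site consensus in capitals and, at Cdkn1a, a match to the whole element.
Cdkn1a, upstream start, chr17:29090729-29090978, plus strand: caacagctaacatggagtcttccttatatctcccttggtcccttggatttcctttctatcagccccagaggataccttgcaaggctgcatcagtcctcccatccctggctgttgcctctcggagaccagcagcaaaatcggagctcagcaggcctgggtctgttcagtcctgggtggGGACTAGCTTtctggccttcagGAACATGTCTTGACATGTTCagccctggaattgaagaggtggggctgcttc
Ccng1, chr11:40755287-40755536, minus strand: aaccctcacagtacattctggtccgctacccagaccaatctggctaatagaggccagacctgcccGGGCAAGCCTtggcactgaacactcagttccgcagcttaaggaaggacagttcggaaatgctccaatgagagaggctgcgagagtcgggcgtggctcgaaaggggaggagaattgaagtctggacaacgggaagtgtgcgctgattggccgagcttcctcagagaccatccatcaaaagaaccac
Fas, chr19:34290409-34290658, plus strand: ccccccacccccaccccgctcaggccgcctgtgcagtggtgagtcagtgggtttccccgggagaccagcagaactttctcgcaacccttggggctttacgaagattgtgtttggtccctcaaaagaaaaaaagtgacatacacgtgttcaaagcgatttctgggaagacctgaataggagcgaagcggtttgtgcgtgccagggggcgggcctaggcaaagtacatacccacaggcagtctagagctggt
The half-site is a palindrome of 10 bases, so that both strands give the same matches, and it was searched in windows of 300 bases, from 250 before to 50 after each start. A whole element was 2 half-sites side by side with at most 1 mismatch and the core of each intact. Cdkn1a had 1 element, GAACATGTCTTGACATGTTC, 51 to 32 bases before the upstream of its 2 annotated starts, with 1 mismatch, and a separate half-site, GGACTAGCTT, 73 to 64 bases before it. Ccng1 had the half-site GGGCAAGCCT 185 to 176 bases before its start, and Mdm2 had GAACTTGCCT 186 to 177 bases before its start. Of 32851 windows of all genes, 8.36% held a half-site and 0.0548% held an element. For 8 of the 10 genes 11 windows were found, and 4 of the 11 windows, of 4 genes, held a half-site. Neither the Fas window nor those of Phlda3, Bbc3 and Eda2r held these letters, which says nothing of sites elsewhere in the genes.

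Setting the knockout livers against the controls asks which of these genes change when hepatocytes lose Sco1. Fas was the single one that passed the test, and it fell. None rose past the threshold, which 0.433% of all genes did, and 8 did not pass. The count of 1 in 9 stands beside 1.15% of all genes tested that passed in either direction and 0.717% that passed lower (limma with Benjamini-Hochberg adjustment over 22180 genes, adjusted p under 0.05). Differences were above 0 for 6 genes and below 0 for 3, with a median of 0.15 log2 units, and 57.2% of all genes lay above 0 with a median of 0.03. At an unadjusted p under 0.05 there were 3 of 9, and 16.7% of all genes.

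**Figure D1:**
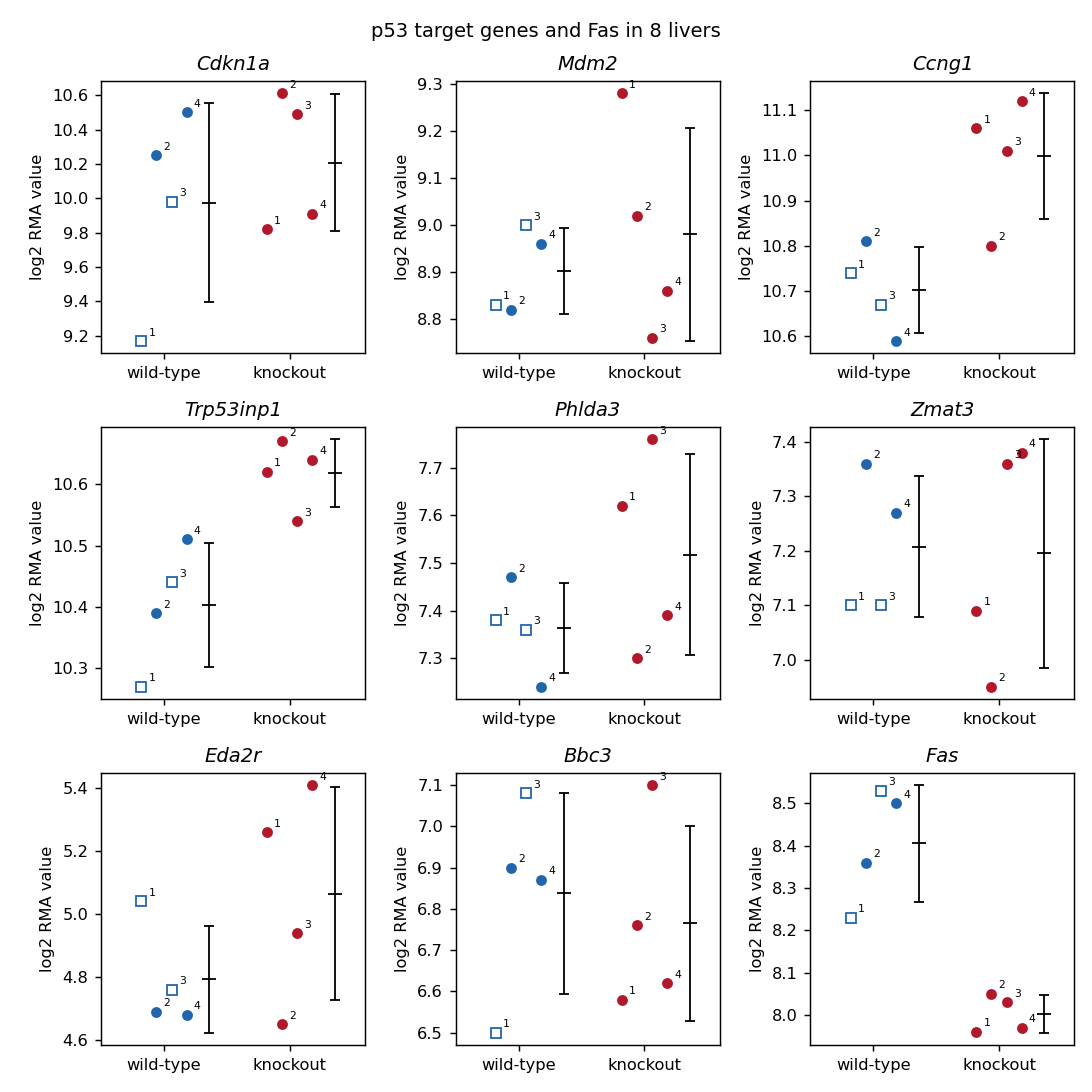
Log2 RMA values of the 9 genes in each liver, on an axis of its own for each gene; numbers are mouse numbers, red circles knockout mice, filled blue circles Cre-free controls, open blue squares Cre-carrying controls with 1 intact allele, and black bars the mean and SD of 4 mice. Fas separates the groups downward and Trp53inp1 upward, and in the other 7 genes the groups overlap.

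Fas was measured at 7.96, 8.05, 8.03 and 7.97 log2 units in knockout mice 1 to 4 and at 8.23, 8.36, 8.53 and 8.50 in wild-type mice 1 to 4. All 4 knockout livers lay below all 4 wild-type livers, and the knockout values lay within 7.96 to 8.05. Fas fell by 0.41 ± 0.08 log2 units (SE, n = 4 each), from 8.41 ± 0.14 to 8.00 ± 0.04 (SD), so that the knockout mean was 75.5% of the wild-type mean (95% interval of the difference -0.59 to -0.22; limma adjusted p = 0.0491; exact two-sided permutation p = 0.0286, the smallest that 4 against 4 allow). The adjusted p was at the edge of the threshold. Leaving out wild-type mouse 1 kept the call (adjusted p = 0.0394), and leaving out any 1 of the 7 other arrays ended it, at up to 0.131. The size changed less than the call, with differences of -0.47 to -0.36 when each array was left out in turn. The control classes averaged 8.38 with Cre and 8.43 without, a difference of -0.06 ± 0.13, and the knockout lay lower than each, by -0.38 ± 0.11 and -0.43 ± 0.11 (SE).

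Fas is made by hepatocytes and also by lymphocytes and other liver cells, and in whole liver fewer cells of a type and less RNA per cell cannot be told apart. None of 9 lymphocyte markers, 10 macrophage markers, 7 endothelial markers, 7 neutrophil markers, 7 stellate cell markers or 6 cholangiocyte markers passed the test. The summed lymphocyte level was higher in every knockout liver, at 9.52 to 9.81 against 9.36 to 9.44 log2 units, as was the endothelial level, at 13.18 to 13.32 against 12.98 to 13.16. Linear values were summed, so that bright markers weigh most, and the median differences of single markers were 0.20 and 0.06. Groups did not overlap for 1 of 9 lymphocyte and 1 of 7 endothelial markers, nor for 10.7% of all genes. The summed levels of macrophages (13.31 to 13.67 against 13.12 to 13.54), neutrophils (8.45 to 8.58 against 8.32 to 8.53), stellate cells (11.49 to 11.60 against 11.54 to 11.87) and cholangiocytes (9.10 to 9.45 against 9.31 to 9.74) overlapped. Differences were above 0 for all 10 macrophage, all 9 lymphocyte, 6 of 7 endothelial and 5 of 7 neutrophil markers. For stellate cells 6 of 7 were below 0. Among all genes 57.2% lay above 0. The strongest single markers were Cd3e of T cells at 0.37 ± 0.12, Cd68 of macrophages at 0.36 ± 0.09, Lyve1 of endothelium at 0.37 ± 0.14 and Prom1 of cholangiocytes at -0.85 ± 0.23 (SE, adjusted p of 0.0921 to 0.212). Prom1 did not stand for its list: 3 of the 6 cholangiocyte markers lay above 0 and 3 below, with a median of 0.03. No single marker of lymphocytes or endothelium passed (lowest adjusted p 0.155 and 0.212), and the part of these cells in the difference of Fas was not tested. RMA values have no true zero, and the dimmest markers, Cftr, Ly6g and Gzma, averaged 4.31, 4.48 and 4.95.

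Other genes of death receptor signalling were mostly close to 0. Of 11 analysed, Fas included, 1 fell, none rose and 10 did not pass, with a median difference of 0.03 log2 units. Among all genes 0.717% passed lower. Cflar, which encodes the caspase-8 inhibitor c-FLIP, lay at -0.28 ± 0.08 and the adaptor gene Tradd at -0.19 ± 0.07 (SE, adjusted p of 0.110 and 0.240), both with all knockout livers below all wild-type livers. Groups did not overlap for 3 of these 11 genes, all lower, nor for 10.7% of all genes, 5.49% lower. Fas ligand, Fasl, differed by 0.15 ± 0.09, the adaptor gene Fadd by 0.14 ± 0.10 and Casp8, the initiator caspase gene, by -0.05 ± 0.08, these 3 being named after their values were seen.

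Eda2r, a receptor of the same family for ectodysplasin A2, was dim on these arrays, its mean lying at the 19.9th percentile of gene means. Knockout mice 1 to 4 read 5.26, 4.65, 4.94 and 5.41 log2 units, and wild-type mice 1 to 4 read 5.04, 4.69, 4.76 and 4.68. Knockout mice 1 and 4 were the highest, while knockout mouse 2 was the lowest of all 8. The difference of 0.27 ± 0.15 (SE, 95% interval -0.07 to 0.61) did not pass (limma adjusted p = 0.401).

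Among the arrest genes, Cdkn1a varied most between mice. Its values were 9.82, 10.61, 10.49 and 9.91 in knockout mice 1 to 4 and 9.17, 10.25, 9.98 and 10.50 in wild-type mice 1 to 4. The groups overlapped, and the mouse 1 array was the lowest of each group. The means of 10.21 ± 0.40 and 9.98 ± 0.58 (SD, n = 4 each) differed by 0.23 ± 0.27 (SE), with a 95% interval of -0.36 to 0.82, or 0.78-fold to 1.76-fold, around the estimate of 1.17-fold (limma adjusted p = 0.697, exact permutation p = 0.571). Without wild-type mouse 1 the difference was -0.04, and without both mouse 1 arrays it was 0.09.

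**Figure D2:**
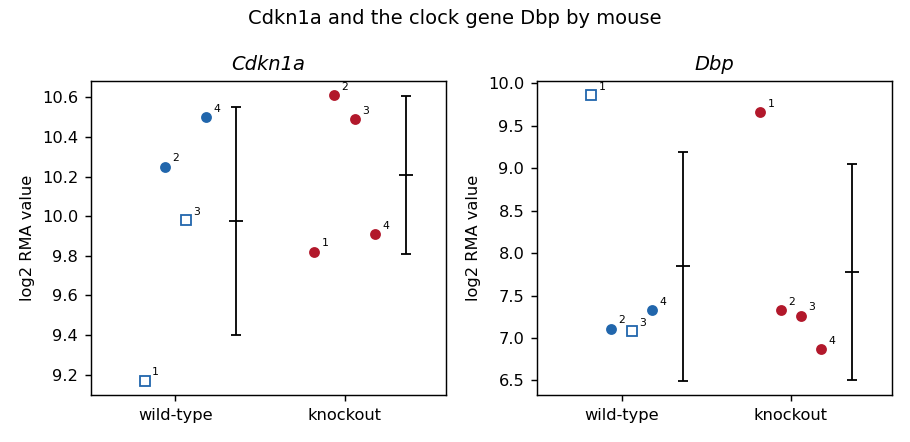
Log2 RMA values of Cdkn1a and of the clock output gene Dbp in each liver, with mouse numbers, colours and bars as in the plot of all 9 genes. Both mouse 1 livers have the highest Dbp and the lowest Cdkn1a of their group.

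Cdkn1a is known to follow the circadian clock in mouse liver, and the labels give no hour of collection. Both mouse 1 livers, high in Dbp, were low in Cdkn1a, and the part of the clock in Cdkn1a was not tested. Cdkn1a also differed between the control classes more than any other of the 9 genes. Controls with Cre and 1 intact allele averaged 9.58 and Cre-free controls 10.37, a difference of -0.80 ± 0.31 (SE, 2 mice each; unadjusted p = 0.0254 and adjusted p = 1.0 in the limma fit with 3 groups). The first class holds wild-type mouse 1, so that class and that mouse cannot be separated here. Against the Cre-carrying controls the knockout lay at 0.63 ± 0.26 and against the Cre-free controls at -0.17 ± 0.26 (adjusted p of 0.388 and 0.847), so that the sign depended on the controls used. Over all genes no call separated the control classes at an adjusted p under 0.05, and 671 genes, 3.03%, had an unadjusted p under 0.05.

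Ccng1, cyclin G1, is induced by p53 and recruits a phosphatase to Mdm2. It read 11.06, 10.80, 11.01 and 11.12 log2 units in knockout mice 1 to 4 and 10.74, 10.81, 10.67 and 10.59 in wild-type mice 1 to 4. Knockout mouse 2 lay just below wild-type mouse 2, and the 3 other knockout livers lay above all wild-type livers. The difference of 0.29 ± 0.09 (SE, 95% interval 0.09 to 0.49), the largest positive one of the 9 genes, corresponded to 1.23-fold and did not pass (limma adjusted p = 0.147; exact permutation p = 0.0571). It was nearly the same against both classes of controls, at 0.29 and 0.30, and it ranged from 0.25 to 0.36 with each array left out in turn.

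Mdm2 stood at 9.28, 9.02, 8.76 and 8.86 log2 units in knockout mice 1 to 4 and at 8.83, 8.82, 9.0 and 8.96 in wild-type mice 1 to 4. Knockout mouse 1 was the highest and knockout mouse 3 the lowest of all 8 livers. The difference was 0.08 ± 0.11 (SE, 95% interval -0.17 to 0.32; limma adjusted p = 0.751), and it was -0.02 without knockout mouse 1.

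**Figure D3:**
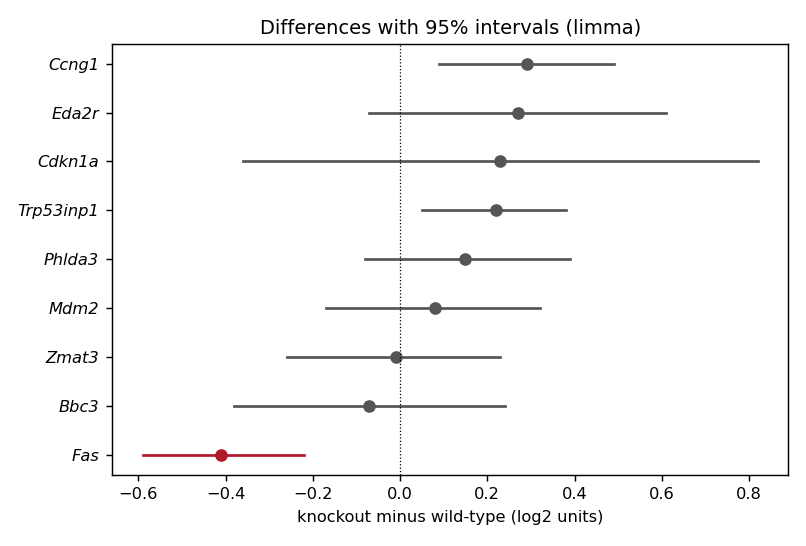
Knockout minus wild-type differences of the 9 genes in log2 units, with 95% limma intervals as bars; red marks an adjusted p under 0.05. Fas at -0.41 is the single red gene, and the intervals of Ccng1 and Trp53inp1 lie above 0 before adjustment for many genes.

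Trp53inp1, which encodes a stress protein that promotes p53 activity and autophagy, was the other gene whose groups did not overlap. Knockout mice 1 to 4 read 10.62, 10.67, 10.54 and 10.64 and wild-type mice 1 to 4 read 10.27, 10.39, 10.44 and 10.51 log2 units. The lowest knockout liver, at 10.54, lay just above the highest control, wild-type mouse 4. The means of 10.62 ± 0.05 and 10.40 ± 0.10 (SD, n = 4 each) differed by 0.22 ± 0.08 (SE, 95% interval 0.05 to 0.38), or 1.16-fold, which did not pass (limma adjusted p = 0.198; exact permutation p = 0.0286). Groups that did not overlap were found for 2 of the 9 genes, 1 in each direction, beside 10.7% of all genes. Of all genes 5.26% lay higher in this way and 5.49% lower.

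Phlda3, an inhibitor of Akt at the membrane, read 7.62, 7.30, 7.76 and 7.39 log2 units in knockout mice 1 to 4 and 7.38, 7.47, 7.36 and 7.24 in wild-type mice 1 to 4. Knockout mice 1 and 3 lay above all controls and knockout mouse 2 below 3 of them. The difference of 0.15 ± 0.11 (SE, 95% interval -0.08 to 0.39) did not pass (limma adjusted p = 0.497). Zmat3, an RNA-binding zinc finger protein gene, read 7.09, 6.95, 7.36 and 7.38 in knockout mice 1 to 4 and 7.10, 7.36, 7.10 and 7.27 in wild-type mice 1 to 4. The wild-type Zmat3 values lay inside the range of the knockout values, with a difference of -0.01 ± 0.11 (SE, 95% interval -0.26 to 0.23; limma adjusted p = 0.971) whose sign turned with several settings.

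Bbc3 encodes Puma, a BH3-only protein through which p53 starts mitochondrial apoptosis. It read 6.58, 6.76, 7.10 and 6.62 log2 units in knockout mice 1 to 4 and 6.50, 6.90, 7.08 and 6.87 in wild-type mice 1 to 4. The groups overlapped over nearly their whole range, and the difference was -0.07 ± 0.14 (SE, 95% interval -0.38 to 0.24; limma adjusted p = 0.836). No single liver was high in every gene: of the 9 genes, knockout mouse 4 had the highest value of 3, knockout mice 2 and 3 of 2 each, and knockout mouse 1 and wild-type mouse 3 of 1 each.

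A longer list of direct p53 targets was written from general knowledge. Of 40 analysed 1 fell, none rose and 39 did not pass, with a median of -0.02 log2 units, 17 differences above 0 and 23 below. Among all genes 0.717% passed lower and 57.2% lay above 0. The gene that fell was Ckap2, a spindle-associated protein gene that is itself periodic in the cell cycle, by 0.80 ± 0.13 (SE, n = 4 each; limma adjusted p = 0.0176), a call that ended when knockout mouse 3 was left out (adjusted p = 0.0524). Rrm2b, the p53-induced ribonucleotide reductase subunit gene, lay at 0.21 ± 0.08 with no overlap, and Steap3, a metalloreductase gene, at -0.24 ± 0.09 (adjusted p of 0.219 and 0.204). The sestrin genes Sesn1 and Sesn2 differed by -0.28 ± 0.11 and 0.14 ± 0.13, the death receptor gene Tnfrsf10b by 0.26 ± 0.11 and the antiproliferative gene Btg2 by -0.21 ± 0.20 (adjusted p of 0.243 to 0.637), these 4 being chosen after their values were seen. None of 22 BCL2 family and mitochondrial apoptosis genes passed (3 were limma's closest: Diablo, an antagonist of caspase inhibitors, at -0.28 ± 0.07, the BH3-only gene Pmaip1 at 0.31 ± 0.12 and the ubiquitin ligase gene Birc2 at -0.29 ± 0.13, with adjusted p of 0.0962, 0.248 and 0.307), and Diablo passed when dim genes were left out (adjusted p = 0.0473). An unadjusted p under 0.05 was found for 2 of these 22 genes and for 11 of the 40 further targets, beside 16.7% of all genes.

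Of 19 analysed regulators of p53, 1 fell, none rose and 18 did not pass, with a median of -0.08. Among all genes 0.717% passed lower. Differences were above 0 for 5 regulators and below 0 for 14, beside 57.2% of all genes above 0. Chek2, the checkpoint kinase that phosphorylates p53 after DNA breaks, fell by 0.54 ± 0.11 (SE, n = 4 each; limma adjusted p = 0.0381; still passing in 2 of 8 fits that each lacked 1 array, at up to 0.105), and the call ended with the Y-linked covariate (-0.51, adjusted p = 0.0854) and against either control class alone (-0.56 and -0.52, adjusted p of 0.162 and 0.201). Its relative Chek1 lay at -0.27 ± 0.09 and the p53 kinase gene Hipk2 the other way at 0.34 ± 0.11 (adjusted p of 0.167 and 0.171), and Hipk2 passed with 1 array left out (adjusted p = 0.0451). Mdm4, the partner of Mdm2 and also named after its value was seen, differed by -0.09 ± 0.13. Trp53 itself was not analysed here.

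Genes of the G1 phase and its inhibitors gave 1 fall among 21 analysed, 20 that did not pass and a median of -0.03. Among all genes 0.717% passed lower. Cdkn2c, which encodes the CDK4 and CDK6 inhibitor p18, fell by 0.45 ± 0.09 (SE, n = 4 each; limma adjusted p = 0.0352; still passing in 1 of 8 fits that each lacked 1 array, at up to 0.104). The call also ended with renewed quantile normalization, with the Y-linked covariate (adjusted p of 0.0675 and 0.0689) and against either control class alone (0.162 and 0.199), at differences of -0.41 to -0.47. The pocket protein gene Rbl1 lay at -0.39 ± 0.11 and Cdk6 at 0.33 ± 0.11 (adjusted p of 0.115 and 0.164). An unadjusted p under 0.05 was found for 6 of the 21, beside 16.7% of all genes.

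The mitotic genes that p21 is known to shut off through the DREAM repressor complex were lower in knockout livers. Whether p21 had a part in their fall was not tested. Cdkn1a, with a knockout minus wild-type difference of 0.23 ± 0.27 (SE), was measured too imprecisely for its missing call to decide this. Of 19 mitotic genes analysed 15 fell, none rose and 4 did not pass, with a median of -0.75 log2 units. The share of all genes that passed lower was 0.717%. Kif2c, a microtubule depolymerase gene, fell by 0.80 ± 0.09 and Plk1, the mitotic kinase gene, fell by 0.89 ± 0.12 (limma adjusted p of 0.0032 and 0.00902). The count of falls was 8 to 14 with each array left out in turn and 2 without both mouse 1 arrays. The fall of mitotic genes in these livers was known before this list was written.

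**Figure D4:**
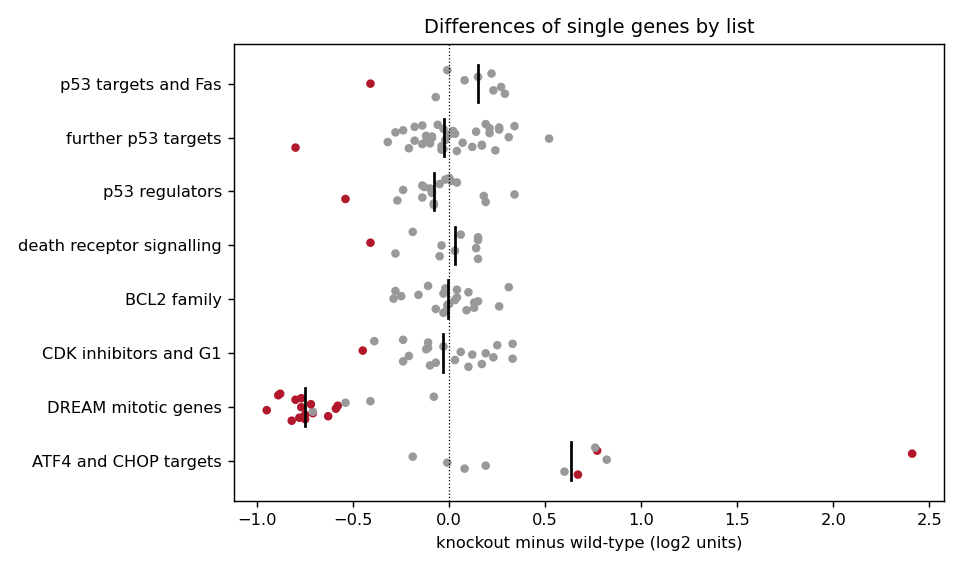
Knockout minus wild-type differences in log2 units of single genes, one row of points per gene list; red points have an adjusted p under 0.05 and black bars are list medians. Medians of the p53 target lists lie at 0.15 and -0.02, that of the DREAM mitotic genes at -0.75 and that of the ATF4 and CHOP targets at 0.63, and genes in more than 1 list appear in each.

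Targets of the stress factors ATF4 and CHOP, which share death genes such as Bbc3 with p53, gave 3 rises among 10 analysed, no falls and 7 that did not pass, with a median of 0.63 log2 units. Of all genes 0.433% passed higher. Nupr1, a stress-induced chromatin protein gene, rose by 2.41 ± 0.24, the serine synthesis gene Psat1 by 0.77 ± 0.14 and asparagine synthetase, Asns, by 0.67 ± 0.13 (SE, n = 4 each; limma adjusted p of 0.00226, 0.0300 and 0.0437). Ddit3, which encodes CHOP, lay at 0.82 ± 0.24 and the pseudokinase gene Trib3 at 0.76 ± 0.19 (adjusted p of 0.131 and 0.081), both with overlapping groups and both chosen after their values were seen. The rest of the list did not pass either and was also named after its values were seen. Atf3 lay at 0.60 ± 0.20, Atf5 at 0.19 ± 0.17, Atf4 at 0.08 ± 0.08, Chac1 at -0.01 ± 0.26 and Ddit4 at -0.19 ± 0.18. In the 8 fits that each lacked 1 array, Nupr1 passed in 8, Psat1 in 2 and Asns in 0 (lowest adjusted p 0.0578). Against either control class alone, and without both mouse 1 arrays, 1 of the 10 genes passed.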

How the data were processed

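Liver RNA of 8 mice, 4 knockout and 4 wild-type by their titles, was hybridised to 1 array each. The authors deposited log2 values from RMA (background correction, quantile normalization and probe set summary), for which the submitters' processing notes name oligo 1.24. No label states the scale, and log2 was taken from how RMA works and from a range of 1.28 to 13.88. The chip definition and genome build are not given in the sources used here. Of 39137 probe sets, 23521 had 1 gene symbol in the platform annotation, 1814 had several and 13802 had none. The probe set of highest mean stood for a gene, which left 22180 genes.

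Differences, knockout minus wild-type, were fitted with limma 3.58.1 under R 4.3.3 (lmFit and eBayes, two-sided, no covariate), with Benjamini-Hochberg adjustment over all genes and a threshold of 0.05. A further fit had 3 groups, with the control classes apart. Exact permutation tests ran over all 70 assignments of the arrays. Named genes are Sco1, the 10 chosen genes, and from each list the members past the threshold or the 3 of smallest p, with up to 2 for each marker list; others are marked in the text as named after their values were seen. The genes and lists were chosen with earlier results of these data known. Of all listed genes 14, Bax and Trp53 among them, were not analysed here. On simulated arrays of 22180 genes, with 200 genes changed in each of 10 trials, the step recovered 71.6% of changes of 0.5 log2 units. At changes of 1 the share was 99.3%, and false calls made up 5.28% at either size. How far these rates hold for single genes as variable as Cdkn1a was not tested. Promoter windows came from RefSeq, build GRCm38.p6. Alternatives covered the variance model, normalization, dim genes, probe sets, array weights, mouse number as a block, control classes, the level of 3 Y-linked genes as a covariate, both mouse 1 arrays and each array left out. The labels do not say whether mice shared litters, and the small number of arrays limits the precision. Python version 3.11.15 with pandas version 2.3.3 was used.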

Additional observations from a re-analysis of the deposited data

How the results depend on the processing

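Fas kept its negative difference in all 19 alternatives and its call in 6. The adjusted p of Fas missed the threshold with renewed quantile normalization (-0.36, adjusted p = 0.0799), mouse number as a replicate block (-0.41, 0.0795), Cre-free controls alone (-0.43, 0.172), Cre-carrying controls alone (-0.38, 0.235), the Y-linked level as covariate (-0.38, 0.0961) and both mouse 1 arrays left out (-0.45, 0.079), which leaves 0 of the 9 genes called in each of these 6. With each array left out in turn its difference ran from -0.47 to -0.36 and 0 to 1 of the 9 genes were called. The causes were not tested, though fits or contrasts on fewer mice have less power by construction. Mouse numbers did not pair the samples of mice 2 to 4, whose deviations correlated at -0.022, 0.031 and -0.102. The mouse 1 pair correlated at 0.273, the highest of all knockout and wild-type pairs (next 0.116), and both mouse 1 arrays stood apart in Dbp. The block changed no other call among the 9 genes and ended that of Cdkn2c (adjusted p = 0.0686).

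Signs turned for 4 genes that were never called. Cdkn1a was -0.17 against Cre-free controls, and -0.04 to 0.40 with each array left out. Mdm2 was -0.05 without both mouse 1 arrays, and -0.02 to 0.15 with each array left out. Zmat3 was 0.01 after renewed quantile normalization and 0.10 against Cre-carrying controls, and -0.07 to 0.07 with each array left out. Bbc3 was -0.18 to 0.01 with each array left out. Over all alternatives Ccng1 ran from 0.24 to 0.36, Trp53inp1 from 0.17 to 0.26, Phlda3 from 0.07 to 0.23 and Eda2r, which leaving out dim genes removed, from 0.14 to 0.41.

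Over all genes 255 passed, 96 higher and 159 lower. Counts were 459 (159 and 300) with a trended robust variance, 442 with dim genes left out (319 lower), 47 (15 and 32) against Cre-free and 29 (13 and 16) against Cre-carrying controls, 151 (45 higher) with the Y-linked covariate, and 65 (28 and 37) without both mouse 1 arrays. Lower calls numbered 245 with array weights and 271 with arrays centred on their median, where higher calls numbered 86, so that the share of higher calls went from 37.6% to 24.1% mainly through more lower calls. With each array left out in turn, 91 to 175 passed, 29 to 65 higher and 60 to 119 lower. The single call among further p53 targets was Ckap2, at -0.80 in the main fit. Ckap2 stood at -0.80 and -0.81 against Cre-free and Cre-carrying controls alone, contrasts of the fit with 3 groups that rest on 2 controls each. Without both mouse 1 arrays it stood at -0.77. In each of these settings it missed the threshold (0 of 40), and 0 to 1 passed with each array left out. Falls among the mitotic genes numbered 5 against Cre-free and 1 against Cre-carrying controls. No call separated the control classes, 0 of 22180.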
